A study of Bos taurus with 8 samples.

Results

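The miR-34 and miR-449 family was examined in extracellular vesicles of bovine follicular fluid (FF-EVs) through its 6 named mature miRNAs, bta-miR-34a, bta-miR-34b, bta-miR-34c, bta-miR-449a, bta-miR-449b and bta-miR-449c. The members were chosen by name and all 6 were found among the 1028 bovine miRNAs of the deposited table, of which 545 had at least 1 read in some library. Follicular fluid had been aspirated from non-pregnant, dry Bos taurus crossbred beef cows in summer (SUM, 4 libraries) and in winter (WIN, 4 libraries), and each library came from a pool of a pair of cows. In both seasons the cows had received a progesterone device, a GnRH analog and FSH before aspiration, so that every sample came from stimulated follicles, and their ages were not given in the sources used here. No group was given a heat treatment, and season stands for every factor that changed between the collections. Values are TMM-adjusted CPM, that is miRNA reads scaled by the size of each library and a further TMM factor, so that the sums of the libraries differ.

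MiRNAs of the miR-34 and miR-449 family are known to carry a common seed, the bases near the 5′ end through which a miRNA recognizes its target mRNAs, and in mammals they restrain cell cycle genes. The miR-34 genes are direct targets of the tumor suppressor p53 in human and mouse cells, and miR-34a is made in many tissues. MiR-34b, miR-34c and the miR-449 miRNAs are best known from multiciliated epithelium, such as that of airways and oviduct, and from testis, where in mice they act redundantly in motile cilia and sperm formation.

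In the RefSeq annotation of ARS-UCD2.0, another assembly than the one the reads were mapped to and therefore used only for names and neighbors, all 6 members were matched and lay at 3 loci. MIR34B and MIR34C were nearest neighbors among miRNA genes, and both lay within the spans of BTG4, which acts in clearing maternal mRNA from mouse oocytes, and of HOATZ, a gene of cilia and flagella in mice. MIR449A, MIR449B and MIR449C lay next to each other within CDC20B, a gene active in multiciliated cells. MIR34A stood apart from these, within the span of GPR157, which encodes a G protein-coupled receptor.

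The libraries held 214004 to 1689467 miRNA reads, and SUM replicate 3 and WIN replicate 1 were the shallowest. A single read was worth 0.567 CPM in the deepest library and 4.02 CPM in the shallowest. Intervals given below are exact 95% intervals (Poisson for a level, Clopper-Pearson for a share) and cover counting error only, since the reads carried no molecular identifiers. For a member with 0 reads in a library, the limit given is the CPM that 3 reads would have had there. MiR-202, a miRNA of ovarian granulosa cells, was present at 5628 to 11850 CPM in SUM and 3086 to 5539 CPM in WIN. These ranges did not overlap, as was so for 16% of the 243 miRNAs tested below. In that season test miR-202 was not called (log2 fold change 0.87, adjusted p = 0.11 from limma).

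bta-miR-34c was by far the most abundant member and was detected in all 8 libraries. Its SUM libraries (replicates 1 to 4) held 1136, 178, 133 and 485 CPM, and its WIN libraries 394, 219, 73.7 and 283 CPM. SUM replicate 1 was the highest library and WIN replicate 3 the lowest, a 15.4-fold range, and the seasons overlapped widely. These levels rested on 33 to 543 reads per library, so the counting interval of SUM replicate 1 (1042 to 1236 CPM) lay far above that of WIN replicate 3 (61.6 to 87.6 CPM). With a mean of 363 CPM, miR-34c ranked at position 87 among all listed miRNAs. Within the family it held 76.7 to 90.2% of the reads in SUM libraries and 81.1 to 86.5% in WIN libraries.

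bta-miR-34b, its genomic neighbor, was also detected in all 8 libraries but at a mean 11.7-fold lower. Levels were 109, 13.8, 4.02 and 31.4 CPM for SUM, against 34.5, 17.7, 7.37 and 29.5 CPM for WIN. SUM replicate 1 was again the highest, and SUM replicate 3, with a single read, was the lowest. The share of miR-34b in the reads of miR-34b and miR-34c together was 2.94 to 8.74% in SUM and 7.49 to 9.44% in WIN. The exact intervals of all 8 libraries overlapped, with the range from 6.60 to 8.85% common to them, so no difference in the ratio of this pair was detectable at this depth although the level of miR-34c differed 15.4-fold. The mature miR-34b and miR-34c are near-identical, and how the counting divided reads that match both was not tested.

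bta-miR-449a, the main member of the CDC20B cluster, was present at 17.3 to 38.3 CPM in 4 libraries and at 0 to 2.27 CPM in the other 4. In SUM it had 37.7, 1.38, 0 and 18.8 CPM, from 18, 1, 0 and 15 reads. In WIN it had 38.3, 1.27, 2.27 and 17.3 CPM, from 10, 1, 4 and 10 reads. Thus replicates 1 and 4 were high and replicates 2 and 3 low in both seasons. The lowest interval bound among the high libraries was 8.31 CPM in WIN replicate 4, and the upper bounds were 7.67, 7.06 and 5.81 CPM in SUM replicate 2, WIN replicate 2 and WIN replicate 3. In SUM replicate 3, 0 reads allow up to 12.1 CPM by the limit of 3 reads and up to 14.8 CPM by the exact interval, so a low level there is less certain. WIN replicate 3, a low library, was the deepest of all, and WIN replicate 1, a high library, was among the shallowest.

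The share of miR-449a in the reads of miR-449a and miR-34c together was 0 to 3.74% in SUM and 0.575 to 8.85% in WIN. Here the exact intervals did not all overlap, since that of WIN replicate 1 began at 4.33% and that of WIN replicate 2 ended at 3.16%. The ratio of miR-449a to miR-34c therefore differed between libraries beyond counting error.

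bta-miR-449b and bta-miR-449c were at the edge of detection. MiR-449b had 5 reads in all, 3 in SUM and 2 in WIN, which gave 2.09, 0, 0 and 2.51 CPM for SUM, against 3.83, 0, 0.567 and 0 CPM for WIN. Its reads came from SUM replicates 1 and 4 and WIN replicates 1 and 3. MiR-449c had 0 reads in SUM, which allows up to 3.77 to 12.1 CPM per library (the worth of 3 reads), and 2 reads in WIN, both in replicate 4 (3.47 CPM). At the depth of the shallowest library neither would have reached 1 expected read in any library, while miR-34b and miR-34c would have in all 8, miR-34a in 6 and miR-449a in 4.

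bta-miR-34a, the member best known as a p53 target, was detected in every library at a low level. The SUM libraries held 10.5, 4.13, 36.2 and 11.3 CPM and the WIN libraries 15.3, 15.2, 6.24 and 3.47 CPM, from 2 to 12 reads per library. SUM replicate 3 was the highest, where miR-34b was lowest and miR-449a was at 0. In that library miR-34a made up 21.4% (interval 10.3 to 36.8%) of the reads of miR-34a and miR-34c together, against 0.912 to 2.28% in the other SUM libraries and 1.21 to 7.80% in WIN.

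**Figure D1:**
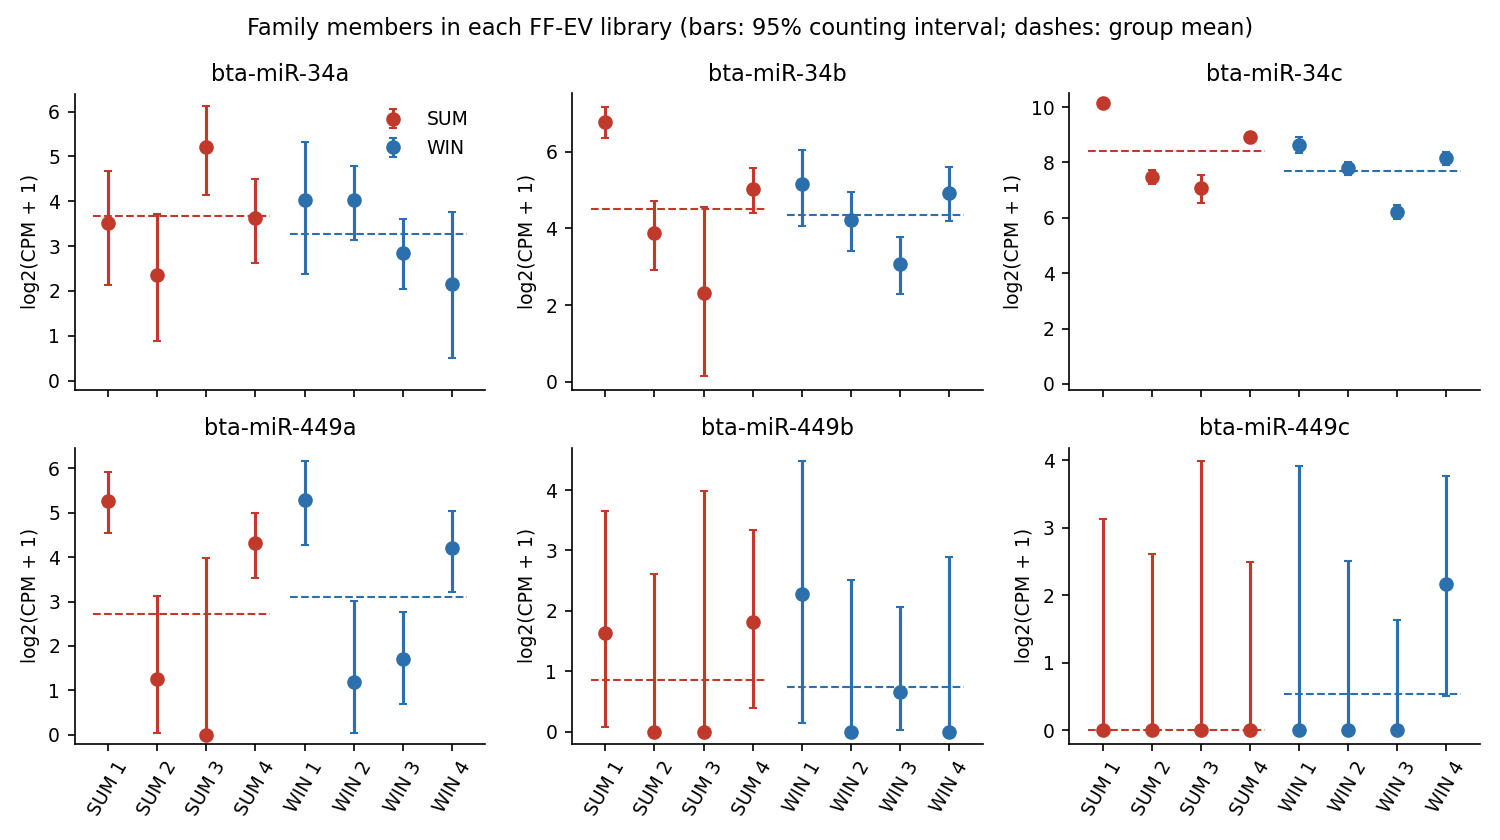
Level of each of the 6 members by library, as log2(CPM + 1) with exact 95% counting intervals, in 4 SUM (red) and 4 WIN (blue) libraries; dashes mark the season mean on that scale. MiR-34c lies between 73.7 and 1136 CPM in all libraries, miR-449a is high in replicates 1 and 4 of both seasons, and miR-449b and miR-449c rest on 5 and 2 reads in all.

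**Figure D2:**
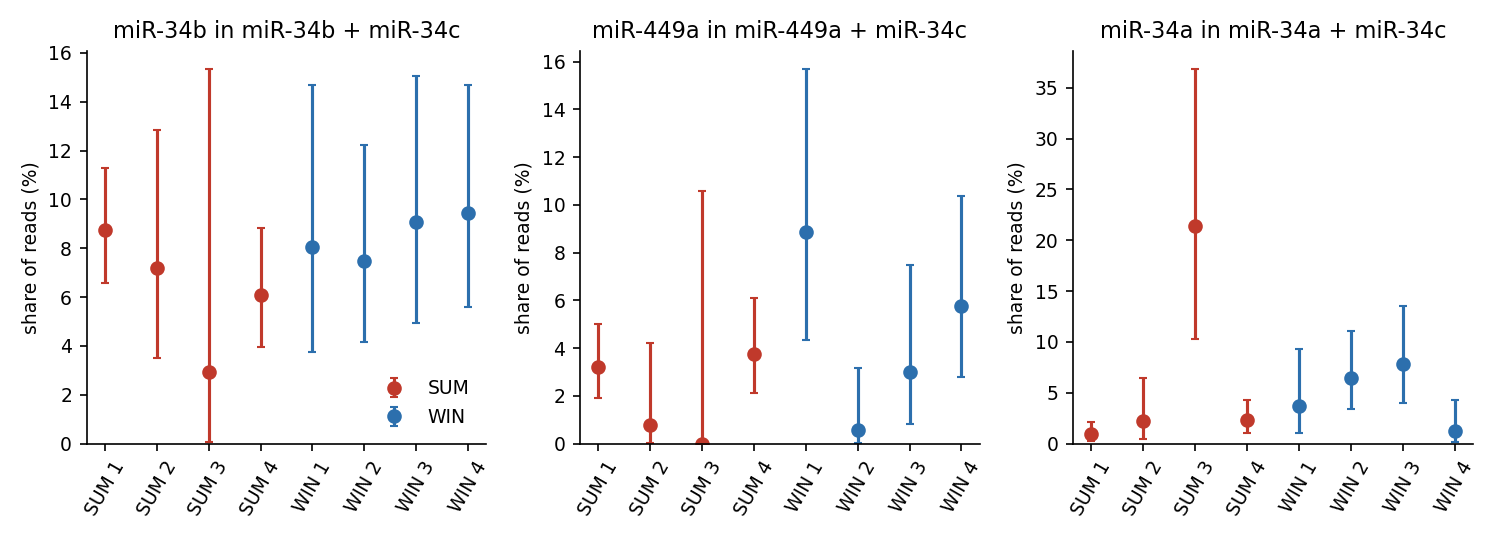
Share (%) of miR-34b, miR-449a or miR-34a in the summed reads of that member and miR-34c, by library, with exact 95% binomial intervals (SUM red, WIN blue). The intervals overlap in all 8 libraries for miR-34b but not for miR-449a or for miR-34a, which reaches 21.4% in SUM replicate 3.

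By mean level over the 8 libraries the order was miR-34c, miR-34b (30.9 CPM), miR-449a (14.6 CPM), miR-34a (12.8 CPM), miR-449b (1.13 CPM) and miR-449c (0.433 CPM). MiR-34c was above miR-34b in 8 of 8 libraries, miR-34b above miR-449a in 7 of 8 and miR-34a above miR-449b in 8 of 8. The neighbors miR-449a and miR-34a did not differ beyond their spread, with miR-449a the higher in 4 of 8 libraries. MiR-449b was above miR-449c in 4 of 8 libraries and below it only in WIN replicate 4, and the others held no read of either. With 5 and 2 reads in all, the order of miR-449b and miR-449c is not settled.

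Agreement between members was close for miR-34b, miR-34c and miR-449a and was not seen for miR-34a over all 8 libraries. On log2(CPM + 1) over the 8 libraries, Pearson's r was 0.93 for miR-34b with miR-34c (Spearman's rho 0.95), 0.88 for miR-34b with miR-449a (rho 0.88) and 0.80 for miR-34c with miR-449a (rho 0.76). Without the 2 libraries farthest from the median of the first member named, r was 0.97, 0.83 and 0.92. MiR-34a had r of -0.25 with miR-34b, 0.04 with miR-34c and -0.24 with miR-449a, and leaving out SUM replicate 3 turned these to 0.33, 0.40 and 0.27. Without SUM replicate 3 and WIN replicate 4, the libraries farthest from the median of miR-34a, they were 0.48, 0.49 and 0.51. MiR-34a also had r of -0.64 with the log2 number of miRNA reads per library, against -0.28 for miR-34c, -0.13 for miR-449a and -0.05 for miR-34b. These coefficients describe 8 points that share depth and scaling, and for miR-34a and miR-449a they rest on few reads. MiR-34b had 1 read in SUM replicate 3. How reads matching both miR-34b and miR-34c were divided was not tested, and the r of this pair may depend on it.

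**Figure D3:**
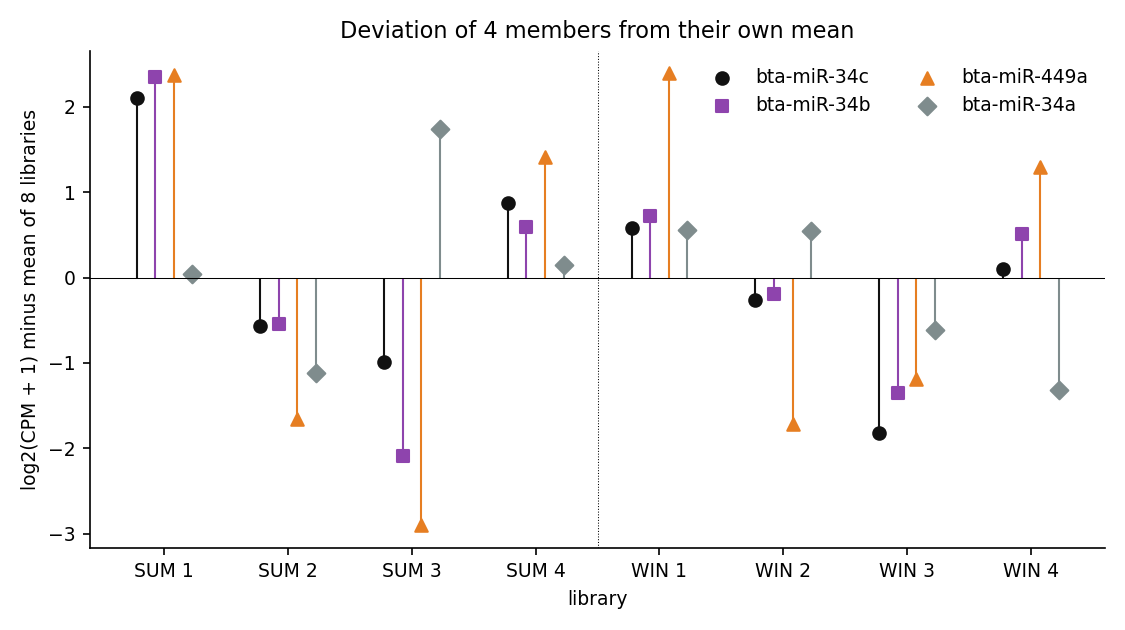
Deviation of 4 members from their own mean of log2(CPM + 1) in each of the 8 libraries, SUM left of WIN. MiR-34c, miR-34b and miR-449a lie above their means in replicates 1 and 4 and below them in replicates 2 and 3 of both seasons, whereas miR-34a is highest in SUM replicate 3.

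Across the 243 miRNAs with a mean above 10 CPM, the miRNAs whose levels were most like those of miR-34c were miR-34b (r 0.93), miR-190b (0.89) and miR-135a (0.85). For miR-34b they were miR-34c, miR-449a and miR-135a (0.86), and for miR-449a they were miR-34b, miR-135a (0.85) and miR-2419-5p (0.85). The median r with all 242 other miRNAs was 0.02 for miR-34b, -0.01 for miR-34c and -0.02 for miR-449a. MiR-135a stood at 23.0, 8.26, 8.05 and 18.8 CPM for SUM, against 15.3, 11.4, 6.81 and 24.3 CPM for WIN. MiR-190b stood at 100.4, 49.6, 52.3 and 100.5 CPM for SUM, against 80.4, 39.3, 27.2 and 78.0 CPM for WIN. Both had their higher values in replicates 1 and 4 of each season, which follows from their choice as the miRNAs most like the members. The highest of 242 coefficients over 8 points can be large by chance, and whether these are larger was not tested. The miRNAs most like miR-34a were others, namely miR-27a-5p (0.79), miR-215 (0.72) and miR-9-5p (0.67), all of them highest in SUM replicate 3 or WIN replicate 1, the shallowest libraries.

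The tested members varied more between libraries than most of the 243 tested miRNAs. SD tends to be larger at low levels, and miR-34a, miR-34b and miR-449a were not compared with miRNAs of equal level. The SD of log2(CPM + 1) over the 8 libraries was 2.09 for miR-449a, the third largest of the 243 miRNAs, 1.38 for miR-34b, 1.21 for miR-34c and 1.001 for miR-34a, against a median of 0.61 for all tested miRNAs and 0.85 for the 112 of them with a mean under 100 CPM. MiR-34c, which is not near the lower limit of detection, had a larger SD than 84.0% of the tested miRNAs.

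**Figure D4:**
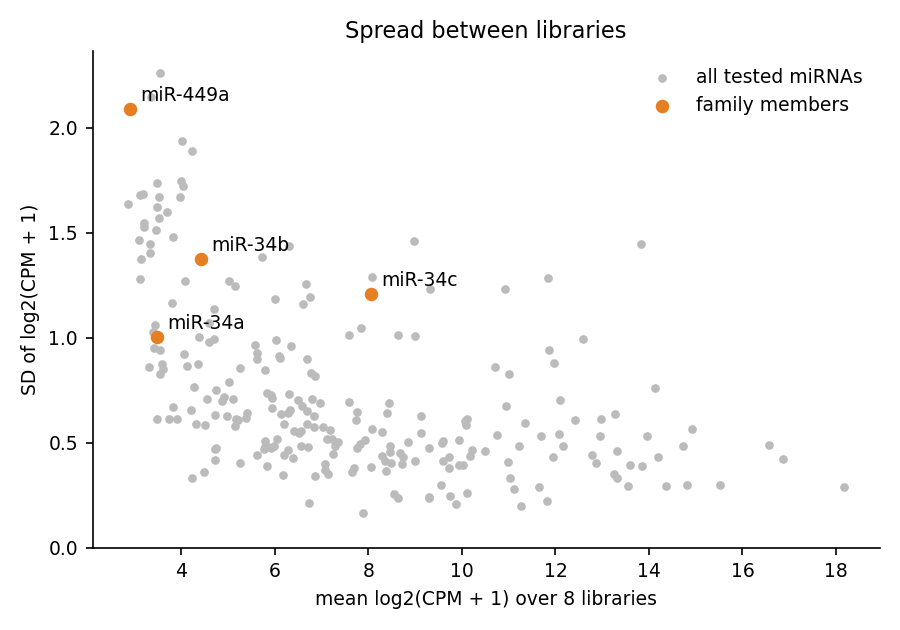
SD of log2(CPM + 1) over the 8 libraries against its mean for the 243 tested miRNAs (gray), with the 4 tested family members in orange. MiR-449a (2.09), miR-34b (1.38) and miR-34c (1.21) lie above the median SD of 0.61.

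The comparison of SUM with WIN asks whether the family in FF-EVs changed between the hot and the cool season. No member passed the test in either direction. By limma on log2(CPM + 1), where a call needs more than a 1.5-fold change and an adjusted p under 0.1, 0 of the 4 tested members were higher and 0 lower in SUM. Of all 243 tested miRNAs, 5.35% were higher and 2.47% lower, 7.82% in either direction. At an unadjusted p below 0.05 the count was likewise 0 of 4 with limma, against 22.2% of all tested miRNAs. It was also 0 of 4 on the recovered reads with edgeR (23.5% of all), DESeq2 (23.1%) and voom (25.1%). The SUM and WIN ranges overlapped for all 6 members, 4 of them tested. Among all 243 tested miRNAs, 16% had a SUM range wholly above or below the WIN range. With only 4 tested members, a count of 0 does not set the family apart from shares of this size. In bulk FF-EV RNA, fewer cells of a type and less RNA per cell cannot be told apart, and CPM values are relative to the other miRNAs.

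MiR-34c averaged 483 ± 463 CPM across SUM and 242 ± 134 CPM across WIN (mean ± SD of 4 libraries per season, exact permutation test, two-sided, p = 0.43). Its log2 fold change was 0.71 (standard error 0.67, 95% interval -0.77 to 2.18, adjusted p = 0.56 from limma), and 0.13 without SUM replicate 1. Without SUM replicate 3 and WIN replicate 1, a setting added after the data were seen, it was 1.47 (unadjusted p = 0.041, adjusted p = 0.16 from limma). The intervals leave room for a change of several fold, so the data do not show that the level was the same in both seasons.

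MiR-34b averaged 39.5 ± 47.6 CPM across SUM and 22.3 ± 12.1 CPM across WIN (mean ± SD of 4 libraries per season, exact permutation test, p = 0.77), with a log2 fold change of 0.16 (95% interval -1.72 to 2.04, adjusted p = 0.94 from limma). This value depended on the setting, at -0.023 after rescaling to equal summed CPM, -0.60 without SUM replicate 1, 0.91 with edgeR, 0.84 with DESeq2 and 0.87 with voom on the recovered reads, and 1.15 without the 2 shallowest libraries (adjusted p 0.33 to 0.98 under these settings). MiR-449a averaged 14.5 ± 17.7 CPM across SUM and 14.8 ± 17.3 CPM across WIN (exact permutation test, p = 0.89). Its log2 fold change was -0.39 (95% interval -3.37 to 2.60, adjusted p = 0.91 from limma), and it was above 0 in the tests on recovered reads. MiR-34a averaged 15.5 ± 14.2 CPM across SUM and 10.1 ± 6.11 CPM across WIN (exact permutation test, p = 0.60), with a log2 fold change of 0.41 (95% interval -1.31 to 2.14, adjusted p = 0.81 from limma). Its medians were 10.9 CPM in SUM and 10.7 CPM in WIN, and without SUM replicate 3 the difference of means was -1.42 CPM. MiR-449b and miR-449c fell under the 10 CPM filter, and without the filter their adjusted p from limma was 0.95 and 0.71, where 1.47% of 545 miRNAs were called.

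**Figure D5:**
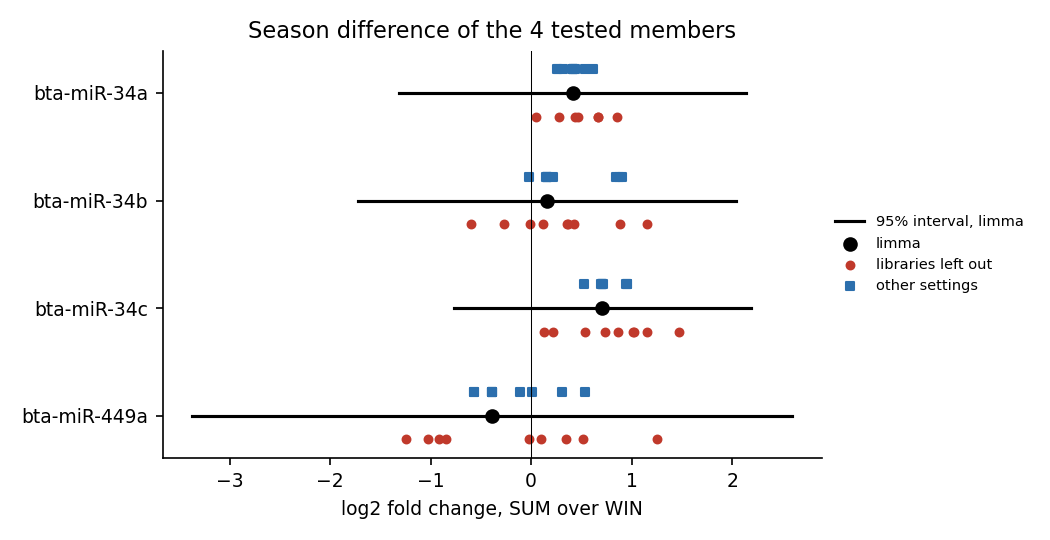
Log2 fold change, SUM over WIN, of the 4 tested members, with the limma value and its 95% interval (black), the values with libraries left out (red) and the values under other settings (blue squares). Every interval spans 0, and the values of miR-34b and miR-449a lie on both sides of 0.

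The summed level of the 6 members was 1295, 197, 173 and 549 CPM for SUM, against 486, 253, 90.2 and 336 CPM for WIN. The mean was 553 ± 523 CPM across SUM and 292 ± 165 CPM across WIN (SD over 4 libraries per season), a difference of 262 CPM that was 14.7 CPM without SUM replicate 1. The family thus made up 0.120% of the miRNA reads at most, in SUM replicate 1, and 0.00941% at least, in WIN replicate 3.

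Of 11 miRNAs outside the family that respond to p53 in human cells, 10 were tested and 0 were higher and 0 lower in SUM. Of all 243 tested miRNAs, 7.82% were called in either direction, so a count of 0 of 10 does not set this list apart. The median log2 fold change of the list was -0.0035, against 0.02 for all tested miRNAs. Positive values were 5 of 10 in the list and 125 of 243 among all tested miRNAs. The most abundant were miR-143 (48986 ± 8203 CPM for SUM, 46765 ± 10810 CPM for WIN), miR-192 (4165 ± 1775 CPM for SUM, 4028 ± 631 CPM for WIN) and miR-215 (2676 ± 3101 CPM for SUM, 2733 ± 1889 CPM for WIN), as mean ± SD of 4 libraries. The summed level of the list was 42389 to 64958 CPM in SUM and 43377 to 67079 CPM in WIN, most of it miR-143. Over the 8 libraries it had r of -0.75 with miR-34c and -0.66 with miR-449a, a description of values that share depth and scaling.

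Markers of other cell types were set beside the family over the same 8 libraries. The summed level of 6 of 7 listed epithelial miRNAs, mainly the miR-200 family, was 5869 to 14531 CPM in SUM and 4377 to 9359 CPM in WIN, with r of 0.31 with miR-34c and 0.20 with miR-449a. That of the 3 red blood cell miRNAs was 5262 to 12731 CPM in SUM and 2439 to 25918 CPM in WIN, with r of 0.42 and 0.65. The r with miR-34c and with miR-449a was 0.29 and -0.02 for the 5 white blood cell miRNAs and 0.04 and -0.38 for miR-202. It was -0.57 and -0.30 for both arms of endothelial miR-126. With only 8 points, these coefficients do not rank the cell types. No matched marker was at 0 in all libraries, and the part of these cell types in the family's levels was not tested.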

How the data were processed

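Small RNA of FF-EVs was sequenced in 8 libraries, 4 SUM and 4 WIN. Reads were trimmed by the authors in CLC Genomics Workbench, aligned to ARS-UCD1.2 and assigned to bovine miRBase entries. The deposited values are TMM-adjusted CPM, treated here as a signal because the column sums run from 860872 to 1222033. The submitters' processing notes also name Bowtie2 2.2.2 and DESeq2. Dividing by the smallest value above 0 recovered whole reads (100% of values within 0.001). Cows were shared between the seasons, but which pools match is not given, so libraries were treated as unrelated.

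The season test was limma 3.58.1 (R 4.3.3, eBayes with trend) on log2(CPM + 1), over the 243 miRNAs averaging more than 10 CPM, with Benjamini-Hochberg adjustment over all of them. Single members were also compared by exact permutation tests (smallest p 0.029). edgeR 4.0.16, DESeq2 1.42.0 and voom on recovered reads were alternatives, with other pseudocounts, filters and scaling, a replicate block, a stricter threshold and left-out libraries. Every tool was tested on simulated reads with equal dispersion for all miRNAs and no shared replicate pattern. Those runs do not show how the tools behave on members as variable as these. The members and lists were chosen with earlier results of these data known. Named are the members, the 3 miRNAs most like each tested member and, of the p53 list, called or most abundant miRNAs. Figures were drawn with matplotlib 3.10.9.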

Additional observations from a re-analysis of the deposited data

Results flagged for a closer look

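Within the 4 WIN libraries, miR-449b in replicate 1 (3.83 CPM) and miR-449c in replicate 4 (3.47 CPM) stood farther from the nearest other library than Dixon's 95% value for groups of 4 allows. These values rest on 1 and 2 reads. In all, 13 groups of 4 libraries were examined. For continuous, normally spread values, chance alone sets a library apart in about 1 of 20 groups. That rate does not hold for so few reads, so neither flag shows an unusual library.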

How the results depend on the processing

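No family member was called higher or lower under any alternative, with 3 to 6 members tested. The log2 fold change of miR-34c ranged from 0.13 to 1.47 (adjusted p 0.16 to 0.93 from limma, edgeR, DESeq2 and voom) and that of miR-34a from 0.04 to 0.85. Both were above 0 in every setting where they were tested. Without SUM replicate 3, miR-34a fell under the 10 CPM filter and was not tested. The sign turned for miR-34b after rescaling to equal summed CPM (-0.023), while edgeR, DESeq2 and voom gave it 0.84 to 0.91, and for miR-449a with edgeR (0.31), DESeq2 (0.0072), voom (0.54) and without the 2 shallowest libraries (1.25). Leaving out each library in turn gave -0.60 to 0.88 for miR-34b and -1.24 to 0.52 for miR-449a. The season difference of mean CPM then ranged from -1.42 to 9.27 for miR-34a, from -5.86 to 29.1 for miR-34b, from -8.05 to 7.51 for miR-449a and from -0.40 to 0.96 for miR-449b, which was also -0.17 after rescaling. The cause of these turns was not tested. Over all tested miRNAs, where limma called 13 higher and 6 lower, the calls in either direction ranged from 0 without WIN replicate 4 to 43 with DESeq2 (23 and 20), and rescaling gave 11 and 22.

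With the replicate number as a block, 0 of 4 members were called, against 25 of all 243 tested miRNAs (15 higher, 10 lower). So few members cannot be set apart from that share. The standard error of miR-34c was 0.33 for a log2 fold change of 0.71 (adjusted p = 0.23, limma). The labels do not say that equal numbers pair the pools. Over the tested miRNAs the deviations of same-numbered libraries had r of -0.02 to 0.30, above 0.1 in 2 of 4 pairs. For SUM and WIN libraries of different numbers, r was -0.32 to 0.26. In all, 4 of 8 libraries agreed best with their own number, and whether this is more than chance gives was not tested.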

Other observations

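The libraries with high levels of miR-449a, miR-34b and miR-34c bore the same replicate numbers in both seasons, a pattern noticed after the values were seen. Replicate number took up 95.2% of the sum of squares of log2(CPM + 1) for miR-449a, the highest share of the 243 tested miRNAs, 87.4% for miR-34b, 81.8% for miR-34c and 23.6% for miR-34a, against a median of 35.4%. Season took up 0.983%, 0.385%, 9.85% and 4.88% for these members, against a median of 19.2%. The low libraries of miR-449a held 1 and 0 reads in SUM replicates 2 and 3, and 1 and 4 reads in WIN replicates 2 and 3. Replicate number splits the libraries into more groups than season does, so its share tends to be larger even for unrelated values. Each share is therefore to be read only against its own median. These shares are descriptions with no test, and the sources used here do not state that equal numbers stand for the same cows.

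MiR-449d, whose name is not among the 6 members, had 0 reads in all 8 libraries, which allows up to 1.70 to 12.1 CPM per library (the worth of 3 reads).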
